A study of Mus musculus with 24 samples.

Results

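Ozone was compared with filtered air in the lungs of mice that had been fed a diet rich in docosahexaenoic acid (DHA), over all genes. The 6 libraries of DHA-fed mice exposed to ozone and the 6 of DHA-fed mice exposed to filtered air were chosen by their titles, and make up 12 of the 24 RNA sequencing libraries of the study. The other 12 libraries come from mice on a control diet, 6 after ozone and 6 in filtered air, and serve here as the setting beside which the response on the DHA diet is placed. All of them hold total RNA of whole mouse lung, extracted with a column kit. The labels used here give no strain, sex, age, ozone dose, length of exposure or time of collection, and do not say whether each library came from its own mouse. The p-values therefore measure the spread between these libraries, which may be technical in part.

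Ozone is an oxidant gas that reacts with lipids and proteins of the fluid lining the airways, and damaged airway and alveolar epithelium then releases signals that draw in neutrophils and monocytes and start cell division and repair. DHA is an omega-3 fatty acid that is built into membrane phospholipids and can be turned by cyclooxygenases, lipoxygenases and other enzymes into signalling lipids called oxylipins. The title of the study names protection from ozone by DHA and its oxylipins as its subject, and the comparison described here gives the transcript response of DHA-fed lungs.

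Of 26253 genes in the table, 16153 had enough counts to be tested. After ozone on the DHA diet 2055 genes were higher (12.7% of those tested) and 1769 were lower (11%), at a Benjamini-Hochberg adjusted p under 0.05 in the quasi-likelihood test of edgeR, from which every adjusted p below also comes. Most of these changes were small: 1304 of the higher and 892 of the lower genes moved by less than 1.25-fold, and the median called change was 1.20-fold upward and 1.25-fold downward. At least 2-fold changes numbered 167 upward and 65 downward. Every DHA-diet ozone library lay above every DHA-diet air library in 830 genes (5.14%) and below it in 629 (3.89%). The genes called higher were shorter, with a median genomic span of 15.8 kb (quartiles 6.95 and 32.9), against 24.2 kb (11.1 and 63.2) for genes called lower and 21.1 kb for all genes tested. Of the genes called higher, 430 had a mean of at least 100 CPM (read counts scaled to a common library size) in both groups, against 181 of those called lower.

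**Figure D1:**
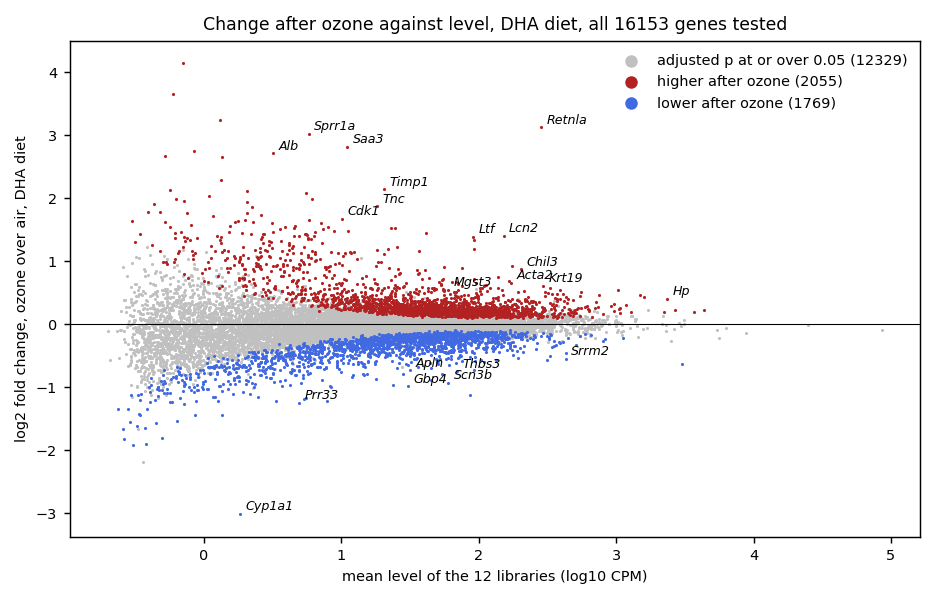
Each point is 1 of the 16153 genes tested, placed by its mean level over the 12 DHA-diet libraries (x, log10 CPM) and its log2 fold change of ozone over air (y). Red points are the 2055 genes called higher and blue points the 1769 called lower. The largest changes of abundant genes lie upward, led by Retnla, and most called genes lie within 1 log2 unit of no change.

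The libraries held between 18053493 and 26225630 counts each. On the first principal component of the 12 libraries, which carried 30.8% of the variance, ozone libraries scored 0.09 to 43.7 and air libraries −20.6 to −13.7. DHA-diet ozone library 1 stood farthest out at 43.7, with 5.51% of its counts in Scgb1a1, the club cell secretoglobin, against 7.62 to 10.2% in the other DHA-diet ozone libraries. DHA-diet ozone libraries 1 and 2 also held the highest neutrophil transcripts, so list counts in the text that differ by more than 1.5 times without both of them are given beside the result. Without both, 1937 genes were higher and 1664 lower. Of the 2055 genes higher with all libraries 1668 were called in that fit too, and of the 1769 lower 1345. In whole lung RNA, fewer cells of a type and less RNA per cell cannot be told apart.

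**Figure D2:**
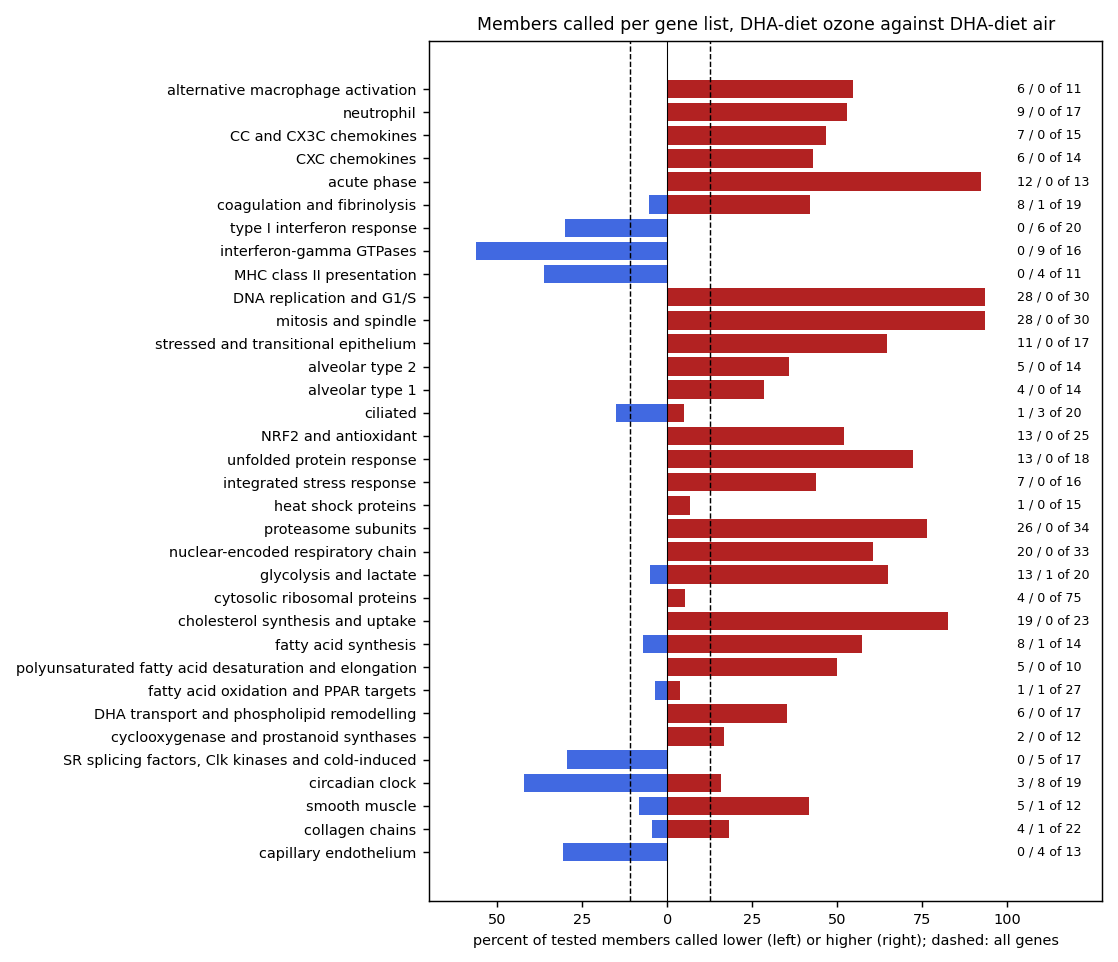
For each of 34 gene lists (rows), the bar to the right is the percent of tested members called higher after ozone on the DHA diet and the bar to the left the percent called lower, with the counts at the right edge. Dashed lines mark the shares over all genes, 12.7% higher and 11% lower. Cell division, acute phase, cholesterol, proteasome and unfolded protein lists lie to the right, and interferon-gamma, clock, MHC class II and splicing lists to the left.

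The resistin-like protein Retnla, which macrophages of the alternatively activated kind and airway cells secrete, led the rises. Predicted gene models aside, no other called gene averaging 5 CPM or more after ozone had a larger log2 fold change. Retnla had 233 to 720.0 CPM (median 556) in the 6 ozone libraries, against 45.4 to 68.6 CPM (median 59.5) in the 6 air libraries. All 6 ozone libraries stood above all 6 air libraries (log2 fold change 3.12 ± 0.29, adjusted p = 1.89e-07). The chitinase-like protein Chil3, also made by these macrophages, had 215 to 325 CPM after ozone (median 242) and 119 to 184 CPM in air (median 141), again with no overlap (log2 fold change 0.87 ± 0.12, adjusted p = 2.23e-05). Of 11 tested genes of alternative activation 6 rose and 0 fell, with a median log2 fold change of 0.29, against −0.01 over all genes tested. Markers of resident alveolar macrophages were called higher in 4 of 15, and in 2 without ozone libraries 1 and 2, a share near the 12.7% of all genes.

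Chemokines that draw monocytes and T cells rose with them. Of 15 tested CC and CX3C chemokines 7 rose and 0 fell (median log2 fold change 0.45). The monocyte attractant Ccl2 had 1.74 to 5.16 CPM after ozone (median 3.1) and 0.479 to 1.21 CPM in air (median 1.05) (log2 fold change 1.76 ± 0.26, adjusted p = 2.91e-05). Ccl7, which acts on the same receptor, rose 3.07-fold (log2 fold change 1.62 ± 0.28, adjusted p = 0.000188), and Ccl17, which attracts T helper cells, rose 2.19-fold (log2 fold change 1.13 ± 0.19, adjusted p = 0.000139). In all of these the groups did not overlap. Of 14 CXC chemokines 6 rose and 0 fell. The lung chemokine Cxcl15 had 1498 to 2227 CPM after ozone (median 1692) and 1143 to 1479 CPM in air (median 1207), with every ozone library above every air library (log2 fold change 0.47 ± 0.09, adjusted p = 0.000387). The mucosal chemokine Cxcl17 likewise rose 1.44-fold (log2 fold change 0.53 ± 0.10, adjusted p = 0.000499). The neutrophil attractant Cxcl3 was called higher (log2 fold change 2.68 ± 0.57, adjusted p = 0.00123) at very low levels, 0.262 to 2.16 CPM after ozone and 0 to 0.456 CPM in air, where the groups overlap.

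Of 15 tested genes of the interleukin-6 family 4 rose and 2 fell, with a median log2 fold change of 0.14, and 2 rose without ozone library 1 or without libraries 1 and 2. Of 18 genes of interleukin-1, tumour necrosis factor and the inflammasome 5 were called higher and 0 lower. The higher count was 2 without ozone library 1, without library 2 or without both. It was 3 without ozone library 4 or air library 1, 2, 5 or 6. Over fits that leave out 1 library 0 or 1 were lower. With 2 members higher, this list and the interleukin-6 list were near the 12.7% of all genes called higher. Oncostatin M, coded by Osm and made mainly by leukocytes, had 2.62 to 4.38 CPM after ozone (median 3.69) and 1.05 to 2.16 CPM in air (median 1.49) (log2 fold change 1.15 ± 0.20, adjusted p = 0.000176). Socs3, the feedback inhibitor that such cytokines induce, rose 1.62-fold (log2 fold change 0.69 ± 0.14, adjusted p = 0.000578), and for both genes the groups did not overlap. Lifr, a receptor chain that binds leukaemia inhibitory factor, fell to 68.9 to 84.1 CPM after ozone, against 84.3 to 111 CPM in air (log2 fold change −0.33 ± 0.06, adjusted p = 0.000357). The epithelial alarmin Il33 had 72.5 to 181 CPM after ozone (median 115) and 67.8 to 82.2 CPM in air (median 73.6) (log2 fold change 0.65 ± 0.16, adjusted p = 0.00437), and here the lowest ozone libraries lay within the air range.

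Neutrophil transcripts rose unevenly. Of 17 tested neutrophil markers 9 were called higher and 0 lower, with a median log2 fold change of 0.92, but the groups did not overlap in 1 of them, the resistin-like Retnlg (4.32 to 20.02 CPM after ozone (median 6.95) and 1.14 to 3.13 CPM in air (median 2.58); log2 fold change 1.99 ± 0.34, adjusted p = 0.000145). The mean log2 CPM of the list was 3.98, 3.72, 2.63, 3.10, 2.53 and 2.42 in DHA-diet ozone libraries 1 to 6, against 2.04 to 2.70 in the air libraries. Ozone libraries 1, 2 and 4 therefore stood above all air libraries, and libraries 3, 5 and 6 within the air range. The lectin receptor Clec4d stayed called without ozone libraries 1 and 2, at a log2 fold change of 0.67 instead of 1.29. The calprotectin gene S100a8 (log2 fold change 1.53 ± 0.44, adjusted p = 0.0126) and its partner S100a9 (log2 fold change 1.45 ± 0.43, adjusted p = 0.0155) lost their calls without ozone library 2 (log2 fold changes 1.04 and 1.01, adjusted p = 0.0613 and 0.0692). The granule protein lactoferrin, Ltf (log2 fold change 1.39 ± 0.41, adjusted p = 0.0141), lost its call without ozone library 1 (0.89, adjusted p = 0.0746), as did the cytokine gene Il1b (0.60, adjusted p = 0.103, against 1.00 ± 0.31 with it). Without both libraries the chemokine receptor Cxcr2 (0.57, adjusted p = 0.282) and the gelatinase Mmp9 (0.48, adjusted p = 0.122) fell short. S100a8, S100a9 and Il1b fell short there too, while Ltf kept its call. In that fit 5 markers of the list were called, and limma-voom, run with quality weights for the libraries, called 5 with all libraries. Mmp9 had a log2 fold change of 1.09 ± 0.28 with all libraries and of 0.72 without library 2.

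The acute phase response was the most complete of the inflammatory lists. Of 13 tested acute phase genes 12 rose and 0 fell, with a median log2 fold change of 1.40, and the same count of 12 rose without ozone libraries 1 and 2. The siderophore-binding protein Lcn2 had 113 to 436 CPM (median 187) in the 6 ozone libraries, against 73.6 to 96.6 CPM (median 80.1) in the 6 air libraries, with no overlap (log2 fold change 1.40 ± 0.21, adjusted p = 4.04e-05). The protease inhibitor Serpina3n had 84.3 to 284 CPM after ozone (median 102) and 51 to 62.5 CPM in air (median 55.7) (log2 fold change 1.20 ± 0.20, adjusted p = 9.44e-05). Its ozone values were spread mainly by library 1, while the other 5 stayed above all air libraries. Haptoglobin, coded by Hp, binds free haemoglobin. It was highly expressed throughout, with 2131 to 2935 CPM after ozone (median 2791) and 1849 to 2288 CPM in air (median 1995), and rose 1.32-fold (log2 fold change 0.40 ± 0.08, adjusted p = 0.000875). Serum amyloid Saa3 had 3.79 to 64.1 CPM after ozone (median 13) and 1.74 to 5.23 CPM in air (median 2.54) (log2 fold change 2.82 ± 0.48, adjusted p = 0.000151); its log2 fold change was 1.85 without ozone libraries 1 and 2. The fibrinogen chain Fgg had 0.455 to 2.2 CPM after ozone (median 1.09) and 0.0829 to 0.575 CPM in air (median 0.396) (log2 fold change 1.76 ± 0.45, adjusted p = 0.00519).

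Albumin, coded by Alb, had 2.75 to 7.42 CPM after ozone (median 5.56) and 0.382 to 1.24 CPM in air (median 0.887), with no overlap (log2 fold change 2.71 ± 0.28, adjusted p = 5.84e-07). Of 10 hepatocyte markers 5 passed the filter on low counts, and Alb was the 1 of them called; 2 were called higher without ozone library 1, without library 2 and without both. The summed level of the markers was 8.50 to 12.4 CPM after ozone and 3.55 to 7.14 CPM in air, and the part of liver RNA in the Alb result was not tested. Among 19 genes of coagulation and fibrinolysis 8 rose and 1 fell; 2 fell without ozone libraries 1 and 2, and 0 to 2 over fits that leave out 1 library, with 0 without air library 5. Tissue factor, coded by F3, starts the clotting cascade. F3 had 85.5 to 154 CPM after ozone (median 112) and 55 to 82.1 CPM in air (median 69.9) (log2 fold change 0.72 ± 0.12, adjusted p = 0.000107), and the groups did not overlap.

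**Figure D3:**
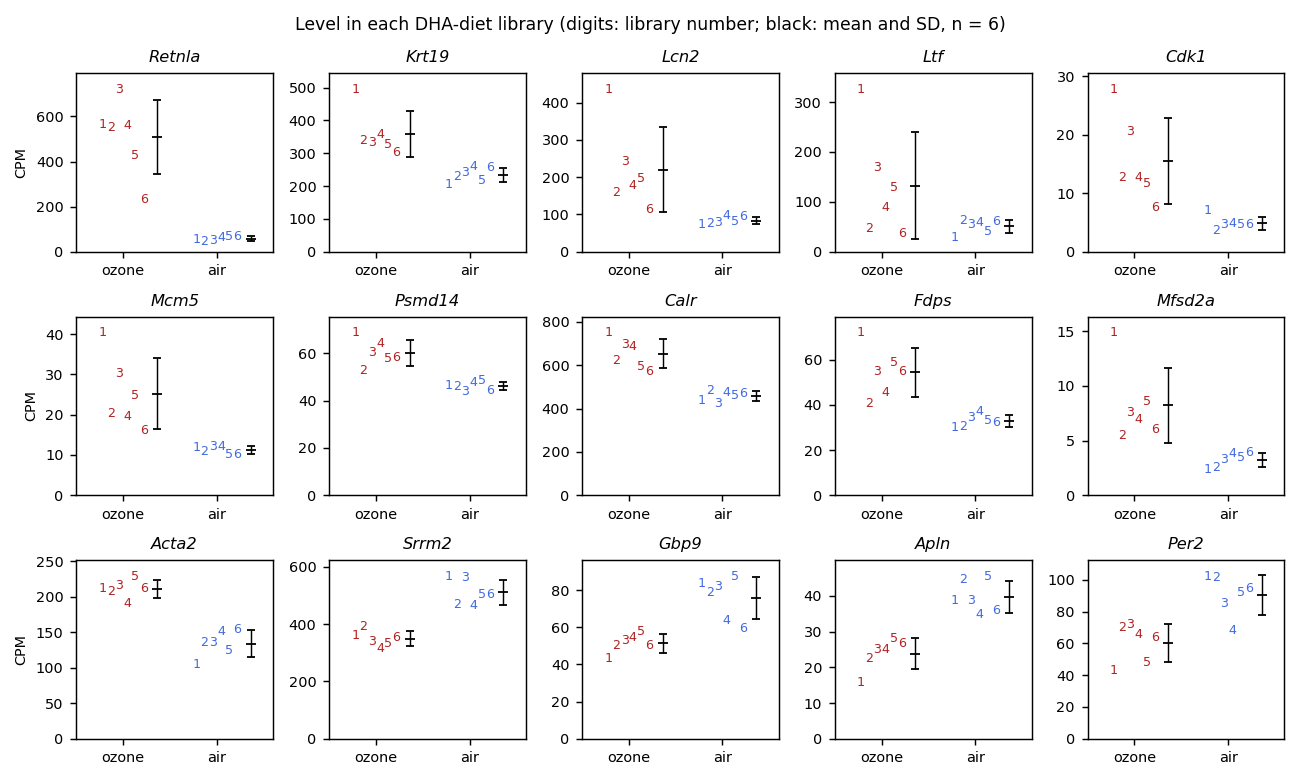
Levels of 15 genes (panels, linear axis in CPM) in each DHA-diet library, ozone left in red and air right in blue, with the digit giving the library number and the black bar the mean and SD of 6. Retnla, Krt19, Lcn2, Cdk1, Mcm5, Psmd14, Calr, Fdps, Mfsd2a and Acta2 separate upward in all 6 ozone libraries, Srrm2, Gbp9 and Apln downward, while Ltf and Per2 overlap.

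Epithelial genes of the stressed and transitional state rose, while most identity markers of the airway did not pass the test. In mouse lung, keratin 8 marks alveolar cells on the way from type 2 to type 1 identity after injury. Of 17 tested genes of this state 11 rose and 0 fell (median log2 fold change 0.42). The cornified envelope precursor Sprr1a had 3.84 to 26.7 CPM after ozone (median 7.63) and 0.682 to 2.02 CPM in air (median 1.14) (log2 fold change 3.02 ± 0.37, adjusted p = 4.18e-06), with no overlap. Keratin 19, Krt19, had 301 to 495 CPM after ozone (median 336) and 206 to 259 CPM in air (median 235) (log2 fold change 0.61 ± 0.09, adjusted p = 2.07e-05), and keratin 7, Krt7, rose 1.46-fold (log2 fold change 0.55 ± 0.09, adjusted p = 0.000176), both without overlap. Keratin 8, Krt8, rose 1.42-fold (log2 fold change 0.50 ± 0.08, adjusted p = 9.96e-05), but its ozone range of 286 to 451 CPM overlapped the air range of 218 to 294 CPM. The checkpoint adaptor stratifin, Sfn, rose 1.82-fold (log2 fold change 0.87 ± 0.15, adjusted p = 0.000168). The lectin Lgals3 (log2 fold change 0.54 ± 0.09, adjusted p = 0.00011) and the secreted chaperone Clu (log2 fold change 0.36 ± 0.07, adjusted p = 0.000293) rose without overlap.

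Some ligands of the epidermal growth factor receptor rose beside them. Of 11 tested genes of this family 3 were called higher and 0 lower (median log2 fold change 0.06), and all 3 are ligands. Over all genes tested 12.7% were called higher. The groups did not overlap in 1 gene of the family, epiregulin. Epiregulin, coded by Ereg, had 0.916 to 5.28 CPM after ozone (median 1.87) and 0.0481 to 0.91 CPM in air (median 0.421) (log2 fold change 2.29 ± 0.41, adjusted p = 0.000232). Amphiregulin, coded by Areg, had 16.4 to 27.2 CPM after ozone (median 23) and 11.4 to 18.5 CPM in air (median 14.7) (log2 fold change 0.63 ± 0.14, adjusted p = 0.0019). Hbegf had 52.2 to 99.9 CPM after ozone (median 58.9) and 38.2 to 55.7 CPM in air (median 47.5) (log2 fold change 0.46 ± 0.12, adjusted p = 0.00496), and its log2 fold change was 0.29 without ozone library 1. Of 14 alveolar type 2 markers 5 rose and 0 fell, among them the surfactant lectin Sftpd (log2 fold change 0.30 ± 0.07, adjusted p = 0.00352), and of 14 type 1 markers 4 rose and 0 fell (0 or 1 fell in each list over fits that leave out 1 library). Scnn1g, the gamma subunit of the sodium channel that clears airway liquid, rose 1.2-fold (log2 fold change 0.26 ± 0.05, adjusted p = 0.000506). The club cell gene Scgb1a1 was not called (log2 fold change −0.09 ± 0.12, adjusted p = 0.625), and its deposited counts are rounded to 3 significant digits. Of 20 ciliated cell markers 3 were called lower and 1 higher, and the higher call was lost in fits leaving out single libraries and without ozone libraries 1 and 2. The share of ciliated markers called lower was near the 11% of all genes.

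Cell division genes rose nearly throughout both lists. Of 30 genes of DNA replication and entry into S phase 28 rose and 0 fell (median log2 fold change 0.69), with all ozone above all air libraries in 18 of them. Of 30 genes of mitosis 28 rose and 0 fell (median 1.15), with no overlap in 5. The chromatin reader Uhrf1, which brings DNA methyltransferase to new DNA, had 9.16 to 23.5 CPM after ozone (median 15.6) and 4.91 to 6.64 CPM in air (median 5.78) (log2 fold change 1.49 ± 0.18, adjusted p = 3.56e-06). The helicase subunit Mcm5 had 16.1 to 40.3 CPM after ozone (median 22.4) and 10.2 to 12.1 CPM in air (median 11.4) (log2 fold change 1.17 ± 0.15, adjusted p = 7.93e-06), and the sliding clamp Pcna rose 1.43-fold (log2 fold change 0.52 ± 0.07, adjusted p = 1.32e-05). The mitotic kinase Cdk1 had 7.59 to 27.7 CPM (median 12.7) in the 6 ozone libraries, against 3.57 to 6.96 CPM (median 4.66) in the 6 air libraries (log2 fold change 1.67 ± 0.22, adjusted p = 1.19e-05). The topoisomerase Top2a rose 2.88-fold (log2 fold change 1.52 ± 0.25, adjusted p = 8.37e-05) and the spindle kinase Aurka 2.56-fold (log2 fold change 1.35 ± 0.19, adjusted p = 2.33e-05). In all 6 of these genes the groups did not overlap. Relative to the air mean, the mitosis list stood 2.08, 0.98, 1.44, 0.74, 0.84 and 0.12 log2 units higher in ozone libraries 1 to 6, so library 6 stood below the highest air library at 0.18. Cdkn1a, the p53 target that inhibits cyclin-dependent kinases, also rose (log2 fold change 0.54 ± 0.14, adjusted p = 0.00442), by 0.35 on the log2 scale without ozone library 1.

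Promoter sequence was examined for these and some other lists. RefSeq windows on GRCm38.p6, from 250 bases before to 50 after the gene start, matched 12718 of the genes tested. The cell cycle homology region, TTTGAA on either strand, lies in the window of 16 of 23 called mitosis genes with a window (69.6%), against 14.9% of all these genes. The E2F motif TTTNNCGC lies in 11 of 23 called replication genes (47.8%), against 8.92% of all. The CCAAT motif lies in 17 of the 23 mitosis genes (73.9%), against 41.7%. Among all genes called higher, TTTGAA lies in 15.5%, the E2F motif in 11.5% and CCAAT in 46.3%. Over the whole mitosis list, called or not, TTTGAA lies in 18 of 25 genes (72%). Over the whole replication list the E2F motif lies in 12 of 24 genes (50%). These are matches of letters, not measured binding, and their part in the ozone change was not tested. Windows of 4 of these genes follow, 5′ to 3′ on the gene's strand, with motif matches in capitals: TTTGAA and CCAAT (or its reverse, ATTGG) for Cdk1 at chr10:69352863-69353162 (minus strand), TTTGAA for Aurka at chr2:172370521-172370820 (minus), and the E2F motif for 1 of 2 windows of Uhrf1 at chr17:56303087-56303386 (plus) and for Mcm5 at chr8:75109259-75109558 (plus), where matches on both strands overlap.
Cdk1: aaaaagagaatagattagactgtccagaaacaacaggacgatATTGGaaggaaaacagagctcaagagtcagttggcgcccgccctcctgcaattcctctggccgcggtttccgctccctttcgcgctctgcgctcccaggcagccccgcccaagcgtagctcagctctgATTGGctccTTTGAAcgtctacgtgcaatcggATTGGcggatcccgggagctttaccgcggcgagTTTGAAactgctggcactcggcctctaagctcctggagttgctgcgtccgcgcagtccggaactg
Aurka: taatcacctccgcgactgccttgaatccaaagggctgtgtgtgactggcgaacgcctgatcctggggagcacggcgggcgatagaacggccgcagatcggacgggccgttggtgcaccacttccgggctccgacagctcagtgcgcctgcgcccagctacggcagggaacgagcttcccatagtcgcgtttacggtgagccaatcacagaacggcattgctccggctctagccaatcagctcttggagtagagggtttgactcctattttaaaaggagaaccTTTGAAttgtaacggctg
Uhrf1: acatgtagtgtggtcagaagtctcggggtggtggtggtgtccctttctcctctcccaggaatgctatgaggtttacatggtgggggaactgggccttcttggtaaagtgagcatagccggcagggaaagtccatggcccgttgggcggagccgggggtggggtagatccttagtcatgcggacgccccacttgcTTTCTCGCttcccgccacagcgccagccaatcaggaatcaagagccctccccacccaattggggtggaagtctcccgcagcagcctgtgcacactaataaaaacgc
Mcm5: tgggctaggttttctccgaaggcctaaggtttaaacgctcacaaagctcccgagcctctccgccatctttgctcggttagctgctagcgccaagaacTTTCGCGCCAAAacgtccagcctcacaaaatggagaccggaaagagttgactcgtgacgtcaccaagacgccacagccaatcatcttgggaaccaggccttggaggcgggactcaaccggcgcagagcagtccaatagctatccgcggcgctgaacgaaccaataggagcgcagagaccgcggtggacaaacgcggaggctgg
The first of the TTTGAA matches in Cdk1 begins 71 bases before the gene start and the other 15 bases before it, and that of Aurka begins 32 bases after the start.

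Chaperones of the endoplasmic reticulum rose, and cytosolic heat shock proteins did not as a list. Of 18 genes of the unfolded protein response 13 rose and 0 fell (median log2 fold change 0.31), with 9 showing no overlap, and 13 rose without ozone libraries 1 and 2. The calcium-binding chaperone calreticulin, coded by Calr, had 570.2 to 749 CPM after ozone (median 654) and 422 to 485 CPM in air (median 464) (log2 fold change 0.51 ± 0.07, adjusted p = 1.15e-05). The chaperone cofactor Sdf2l1 rose 1.83-fold (log2 fold change 0.87 ± 0.12, adjusted p = 1.36e-05), and the disulfide isomerase Pdia6 had 337 to 414 CPM after ozone (median 371) and 239 to 289 CPM in air (median 267) (log2 fold change 0.49 ± 0.07, adjusted p = 1.78e-05). Hsp90b1, another chaperone of this compartment, rose 1.21-fold (log2 fold change 0.28 ± 0.05, adjusted p = 0.000616). For these 4 genes every ozone library lay above every air library. Of 15 heat shock proteins 1 was called higher, and 0 to 6 were over fits that leave out 1 library, with 6 without air library 2.

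The endoplasmic reticulum stress element, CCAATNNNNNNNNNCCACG on either strand, contains a CCAAT motif and is bound by factors of the unfolded protein response. It lies in the window of 6 of 11 called genes of this list (54.5%), against 22 genes, or 0.173%, of all 12718. Over the whole list, called or not, it lies in 7 of 16 genes (43.8%), and among all genes called higher in 0.424%. The windows of Calr at chr8:84846882-84847181 (minus strand) and Hsp90b1 at chr10:86705395-86705694 (minus), RefSeq on GRCm38.p6, carry it in capitals, in reverse in Calr and in both orientations in Hsp90b1.
Calr: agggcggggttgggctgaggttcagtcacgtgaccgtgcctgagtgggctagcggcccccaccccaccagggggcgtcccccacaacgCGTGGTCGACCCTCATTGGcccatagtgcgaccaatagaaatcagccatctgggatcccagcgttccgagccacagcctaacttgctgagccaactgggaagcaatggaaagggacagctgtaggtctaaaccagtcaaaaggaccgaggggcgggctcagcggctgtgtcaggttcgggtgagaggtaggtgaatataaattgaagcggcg
Hsp90b1: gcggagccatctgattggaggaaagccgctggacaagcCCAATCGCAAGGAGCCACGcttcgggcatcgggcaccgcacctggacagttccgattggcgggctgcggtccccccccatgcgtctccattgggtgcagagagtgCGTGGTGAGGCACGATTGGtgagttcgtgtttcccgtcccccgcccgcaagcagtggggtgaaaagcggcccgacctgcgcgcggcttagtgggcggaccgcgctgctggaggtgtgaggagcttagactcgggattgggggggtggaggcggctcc

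Subunits of the proteasome, the complex that degrades tagged proteins, rose by small and uniform amounts. Of 34 subunit genes 26 rose and 0 fell, with a median log2 fold change of 0.22, and in 25 the groups did not overlap. The list stood 0.14 to 0.24 log2 units above the air mean in the 6 ozone libraries, against −0.02 to 0.04 in the air libraries. The deubiquitinating subunit Psmd14 had 52.7 to 68.6 CPM (median 59.2) in the 6 ozone libraries, against 43.8 to 48.4 CPM (median 46.2) in the 6 air libraries (log2 fold change 0.39 ± 0.05, adjusted p = 1.38e-05). Psmd2, a scaffold of the regulatory particle, rose 1.2-fold (log2 fold change 0.26 ± 0.04, adjusted p = 4.68e-05). By contrast 4 of 75 cytosolic ribosomal protein genes rose and 0 fell (8 rose by limma-voom), with a median of −0.0045.

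Nuclear genes of the respiratory chain shifted in the same small and even way. Of 33 tested 20 rose and 0 fell, all 33 had a positive log2 fold change, and the median was 0.15. The list stood 0.10 to 0.22 log2 units above the air mean in the ozone libraries, against −0.03 to 0.03 in air. The ATP synthase subunit Atp5b had 692 to 808 CPM after ozone (median 765) and 605 to 671 CPM in air (median 639.6) (log2 fold change 0.25 ± 0.05, adjusted p = 0.00031). Cox5a, a subunit of cytochrome c oxidase, rose 1.25-fold (log2 fold change 0.32 ± 0.06, adjusted p = 0.000499) and the complex I subunit Ndufv1 1.16-fold (log2 fold change 0.21 ± 0.04, adjusted p = 0.000538), all without overlap. Of 20 genes of glycolysis and lactate 13 rose and 1 fell. Pyruvate kinase, Pkm, had 459.8 to 611 CPM after ozone (median 487) and 368 to 413 CPM in air (median 381) (log2 fold change 0.40 ± 0.05, adjusted p = 1.19e-05), and lactate dehydrogenase, Ldha, rose 1.32-fold (log2 fold change 0.40 ± 0.06, adjusted p = 2.73e-05). The member that fell was Pfkfb3, whose product makes the activator of phosphofructokinase (log2 fold change −0.24 ± 0.07, adjusted p = 0.0152).

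Genes of serine and one-carbon synthesis rose within the list of the integrated stress response, of which 7 of 16 rose and 0 fell. Psat1, a transaminase of serine synthesis, had 20.4 to 49.5 CPM after ozone (median 24.2) and 10.8 to 14.6 CPM in air (median 13.4) (log2 fold change 1.12 ± 0.14, adjusted p = 6.48e-06). The mitochondrial folate enzyme Mthfd2 had 6.63 to 14.5 CPM after ozone (median 9.82) and 4.85 to 6.2 CPM in air (median 5.11) (log2 fold change 0.91 ± 0.14, adjusted p = 5.71e-05), and Phgdh, the first enzyme of serine synthesis, rose 1.41-fold (log2 fold change 0.49 ± 0.09, adjusted p = 0.000416). The groups did not overlap in any of the 3.

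In a mixed list of targets of the factor NRF2 and other antioxidant genes, 13 of 25 rose and 0 fell. All 25 had a positive log2 fold change, with a median of 0.24. The count of genes called higher was 7 without ozone library 2 and 8 without libraries 1 and 2. The glutathione transferase Mgst3 separated the groups with little spread, at 66.3 to 79.3 CPM after ozone (median 70.8) and 48 to 50.3 CPM in air (median 49) (log2 fold change 0.55 ± 0.05, adjusted p = 1.89e-07). Taldo1, an enzyme of the pentose phosphate pathway that supplies NADPH, rose 1.44-fold (log2 fold change 0.53 ± 0.07, adjusted p = 1.2e-05). Glutathione reductase, Gsr, had 97.8 to 169 CPM after ozone (median 107) and 77.2 to 89.6 CPM in air (median 84.7) (log2 fold change 0.45 ± 0.10, adjusted p = 0.0015), and a log2 fold change of 0.29 without libraries 1 and 2. The mitochondrial superoxide dismutase Sod2 rose 1.15-fold with overlapping groups (log2 fold change 0.21 ± 0.04, adjusted p = 0.00109).

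**Figure D4:**
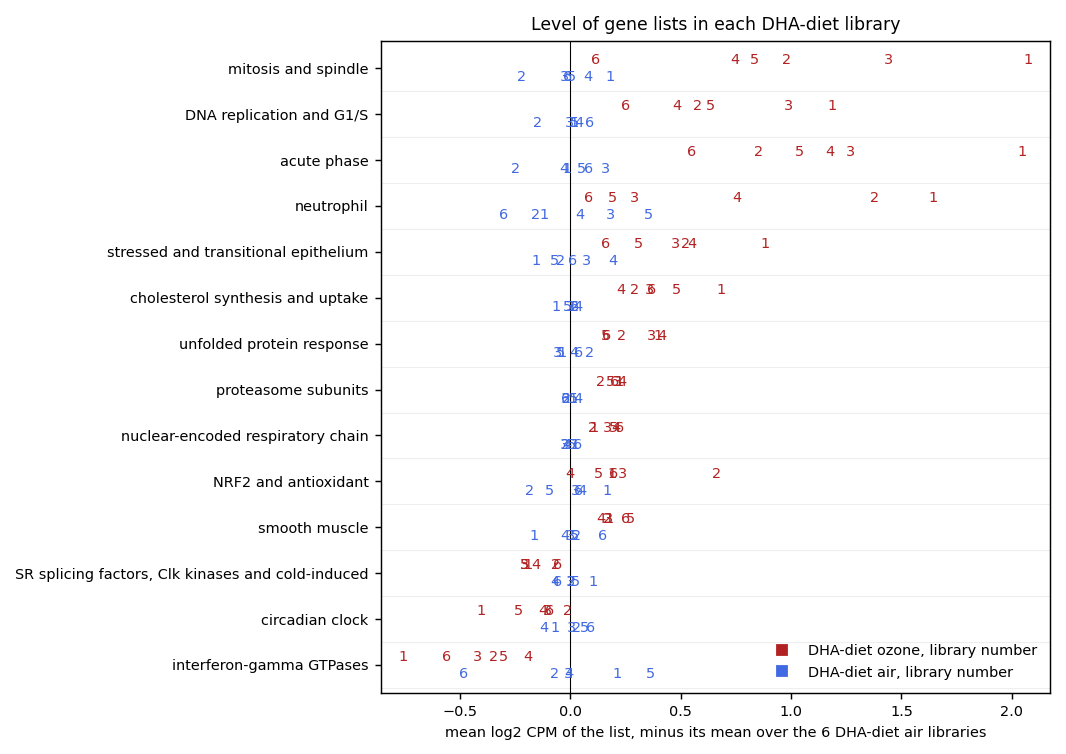
Mean log2 CPM of 14 gene lists (rows) in each DHA-diet library, ozone (red, upper) and air (blue, lower), minus the mean of the 6 air libraries; digits are library numbers. Proteasome, respiratory chain, cholesterol and unfolded protein lists separate all ozone from all air libraries by small amounts, mitosis and neutrophil lists spread widely with library 1 highest, and interferon-gamma lists overlap.

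Genes of cholesterol synthesis and uptake rose in 19 of 23 and fell in 0 (median log2 fold change 0.43), with no overlap in 14. Farnesyl diphosphate synthase, Fdps, had 40.6 to 71.8 CPM after ozone (median 54.7) and 30.1 to 37.2 CPM in air (median 32.5) (log2 fold change 0.73 ± 0.10, adjusted p = 1.38e-05). The sterol demethylase Cyp51 had 57.9 to 93.3 CPM after ozone (median 64.8) and 37.5 to 47.5 CPM in air (median 42.2) (log2 fold change 0.72 ± 0.10, adjusted p = 2.69e-05). Among 10 genes of cholesterol export and sensing 1 rose and 2 fell. The gene that rose was Ch25h, which makes 25-hydroxycholesterol, an inhibitor of sterol synthesis (log2 fold change 0.93 ± 0.15, adjusted p = 8.32e-05). The exporter Abca1 fell to 37.9 to 48.5 CPM after ozone, against 46.9 to 67.6 CPM in air (log2 fold change −0.42 ± 0.09, adjusted p = 0.000983).

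Some genes that handle DHA and other polyunsaturated fatty acids rose as well. Of 17 tested genes of DHA transport and phospholipid remodelling 6 rose and 0 fell (median log2 fold change 0.12). Mfsd2a, the transporter of lysophosphatidylcholine that carries DHA into cells, had 5.46 to 14.8 CPM (median 7.25) in the 6 ozone libraries, against 2.37 to 3.93 CPM (median 3.33) in the 6 air libraries, with no overlap (log2 fold change 1.36 ± 0.21, adjusted p = 6.21e-05). The acyltransferases Lpcat3 (log2 fold change 0.25 ± 0.05, adjusted p = 0.00105) and Mboat1 (log2 fold change 0.44 ± 0.09, adjusted p = 0.00121), which place fatty acids into phospholipids, also rose without overlap. Of 10 genes of desaturation and elongation 5 rose and 0 fell. The desaturase Fads2 had 75.1 to 81.9 CPM after ozone (median 75.8) and 56.5 to 69.7 CPM in air (median 65.1) (log2 fold change 0.25 ± 0.06, adjusted p = 0.0023), its partner Fads1 rose 1.21-fold (log2 fold change 0.27 ± 0.06, adjusted p = 0.00116), and the elongation reductase Hsd17b12 rose 1.3-fold (log2 fold change 0.38 ± 0.05, adjusted p = 1.08e-05).

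Enzymes that make oxylipins were called higher at a share near the 12.7% of all genes. Of 12 genes of the cyclooxygenase branch 2 rose and 0 fell (4 rose by limma-voom). The prostaglandin E synthase Ptges had 28.3 to 53.4 CPM after ozone (median 33.1) and 19.9 to 26.9 CPM in air (median 22.6) (log2 fold change 0.66 ± 0.11, adjusted p = 9.27e-05), and the constitutive cyclooxygenase Ptgs1 rose 1.29-fold (log2 fold change 0.37 ± 0.10, adjusted p = 0.00759). The inducible cyclooxygenase Ptgs2 had 22.4 to 39.2 CPM after ozone (median 25) and 21 to 30.9 CPM in air (median 28.2) and was not called (log2 fold change 0.05 ± 0.15, adjusted p = 0.835). Of 16 genes of the lipoxygenase branch 2 were called higher and 0 lower, among them Alox5ap, the helper of 5-lipoxygenase (log2 fold change 0.35 ± 0.08, adjusted p = 0.00249). The count of higher genes in this branch was 1 without ozone libraries 1 and 2, 4 without air library 5 and 4 by limma-voom. The lipoxygenase Alox15 had 3.49 to 30.3 CPM after ozone (median 12.1) and 1.78 to 22.3 CPM in air (median 3.88) and was not called (log2 fold change 1.12 ± 0.55, adjusted p = 0.147); without air library 5, at 22.3 CPM, its log2 fold change was 2.06 (adjusted p = 0.00767).

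Among 19 receptors of lipid mediators 4 were called higher and 1 lower. Cmklr1, a receptor of the peptide chemerin and of the lipid resolvin E1, had 67 to 127 CPM after ozone (median 83.4) and 58.5 to 74.2 CPM in air (median 68.1) (log2 fold change 0.37 ± 0.10, adjusted p = 0.00835), and 0.24 on the log2 scale without ozone library 1. The prostaglandin F receptor Ptgfr fell (log2 fold change −0.48 ± 0.14, adjusted p = 0.0139). The count of higher receptors was 2 when any 1 of air libraries 1, 2, 3 and 6 or ozone libraries 4 and 6 was left out, and 2 without ozone libraries 1 and 2. The count of lower receptors was 2 when any 1 of air libraries 2 and 5, ozone libraries 1, 3 and 6 or control-diet air libraries 1 and 6 was left out, and 3 with scaling by library totals.

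Genes that fell were led by transcripts outside the lists of inflammation. Scn3b, an accessory subunit of voltage-gated sodium channels, had 35.7 to 46.4 CPM (median 41.6) in the 6 ozone libraries, against 66.8 to 92.5 CPM (median 77.8) in the 6 air libraries. All 6 ozone libraries lay below all 6 air libraries, and its adjusted p was the smallest of all genes tested (log2 fold change −0.93 ± 0.08, adjusted p = 7.04e-08). Thbs3, a thrombospondin, had 42.9 to 68 CPM after ozone (median 46.6) and 75.6 to 93.4 CPM in air (median 88.3) (log2 fold change −0.75 ± 0.09, adjusted p = 3.25e-06). Prr33, a proline-rich protein, fell to 1.75 to 4.01 CPM after ozone, against 5.65 to 9.6 CPM in air (log2 fold change −1.25 ± 0.18, adjusted p = 2.23e-05). Cyp1a1, the target of the aryl hydrocarbon receptor, was called lower at −3.02 ± 0.89 log2 units through 1 library: air library 1 had 18.3 CPM, the medians were 0.301 CPM after ozone and 0.343 CPM in air, and without that library the log2 fold change was 0.37.

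Srrm2 and Rsrp1, which belong to none of the lists used here, were among the lower genes with the smallest p. Srrm2, a scaffold of the nuclear speckles where splicing factors gather, had 315 to 392 CPM after ozone (median 346) and 467 to 566 CPM in air (median 503) (log2 fold change −0.55 ± 0.06, adjusted p = 8.92e-07). The arginine and serine rich protein Rsrp1 had 256 to 304 CPM after ozone (median 272) and 371 to 411 CPM in air (median 385) (log2 fold change −0.50 ± 0.05, adjusted p = 3.85e-07). Clk1 and Clk4, kinases that phosphorylate SR splicing factors, fell to 0.709 and 0.756 of their air levels (Clk1 log2 fold change −0.50 ± 0.08, adjusted p = 6.36e-05; Clk4 log2 fold change −0.40 ± 0.07, adjusted p = 0.00017). In these 4 genes no ozone library reached the lowest air library. Of 17 SR factor, Clk kinase and cold-induced genes, the list that holds Clk1 and Clk4, 5 fell, 0 rose and 12 were not called (median log2 fold change −0.11). No other member of it separated the groups, and Srsf5 fell with overlapping groups (log2 fold change −0.30 ± 0.08, adjusted p = 0.00916).

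Genes that interferon gamma induces fell in 9 of 16 and rose in 0 (median log2 fold change −0.43), and 5 fell without ozone libraries 1 and 2. The guanylate-binding protein genes are close paralogs, so reads shared between them could have been lost or assigned unevenly. Gbp9 had 43 to 57.7 CPM after ozone (median 51.6) and 59.4 to 87.4 CPM in air (median 80.3) (log2 fold change −0.56 ± 0.10, adjusted p = 0.000225), with no overlap. Gbp4 had 11.8 to 27.6 CPM after ozone (median 21.5) and 21.6 to 55.9 CPM in air (median 40.7) (log2 fold change −0.99 ± 0.22, adjusted p = 0.00217), and the ranges overlapped. The motif TTCNNNGAA lies in the promoter window of 4 of the 5 called genes of this list that have one (80%), against 8.37% of all. Over the whole list, called or not, it lies in 7 of 10 genes (70%), and among all genes called lower in 9.13%. Of 20 type I interferon response genes 6 fell and 0 rose. Without libraries 1 and 2, 2 fell, a share near the 11% of all genes called lower with all libraries. Stat2, a signal transducer of these interferons, was among the 6 (log2 fold change −0.38 ± 0.09, adjusted p = 0.00287). Of 11 genes of MHC class II presentation 4 fell and 0 rose, and 2 fell without both libraries. The class II chain H2-Aa had 227 to 337 CPM after ozone (median 308) and 329 to 478 CPM in air (median 381) (log2 fold change −0.37 ± 0.10, adjusted p = 0.00815), and H2-Ob, a chain of the class II modulator found mainly in B cells, fell to 0.713 of its air level (log2 fold change −0.49 ± 0.13, adjusted p = 0.006).

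Markers of lymphocytes are given beside these values because the same cells make interferon gamma or carry class II. Of 15 T cell markers 2 were lower (1 to 3 over fits that leave out 1 library, 1 without ozone library 4, 1 without ozone libraries 1 and 2), with a summed level of 90.1 to 117 CPM after ozone and 104 to 130.2 CPM in air. Of 12 natural killer cell markers 0 were called (45.5 to 77.5 CPM after ozone, 41.3 to 134 CPM in air), and 3 were lower without air library 6. Of 10 B and plasma cell markers 1 was lower, a call lost in fits leaving out single libraries and without ozone libraries 1 and 2 (216 to 293 CPM after ozone, 218 to 406 CPM in air). For T cells and for B and plasma cells the share called lower was near the 11% of all genes. The part of lymphocytes in the fall of interferon and class II genes was not tested.

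Clock genes fell in 8 of 19 and rose in 3, with a median log2 fold change of −0.25. The period gene Per2 had 42.9 to 71.8 CPM after ozone (median 64.8) and 68.4 to 102 CPM in air (median 93.5) (log2 fold change −0.59 ± 0.12, adjusted p = 0.000859), and Per3 had 53.1 to 105 CPM after ozone (median 88.9) and 97.8 to 144 CPM in air (median 131) (log2 fold change −0.57 ± 0.12, adjusted p = 0.000727). Both overlapped between the groups, with ozone library 1 lowest for Per2. The repressor Nr1d2 had 107 to 177 CPM after ozone (median 173) and 179 to 215 CPM in air (median 207), without overlap (log2 fold change −0.35 ± 0.09, adjusted p = 0.0054). Nfil3, a repressor of genes that the clock drives, rose 1.93-fold (log2 fold change 0.95 ± 0.17, adjusted p = 0.000188). The labels give no clock time of collection, so time of day and ozone cannot be told apart for these genes.

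Contractile genes of smooth muscle rose on the DHA diet. Of 12 markers 5 rose and 1 fell (median log2 fold change 0.16), and the 5 did so with no overlap. The actin Acta2 had 191 to 229 CPM (median 211) in the 6 ozone libraries, against 104 to 154 CPM (median 136) in the 6 air libraries (log2 fold change 0.65 ± 0.09, adjusted p = 1.17e-05). Tagln, an actin-binding protein of the same cells, had 228 to 283 CPM after ozone (median 239) and 179 to 199 CPM in air (median 184) (log2 fold change 0.40 ± 0.06, adjusted p = 2.21e-05). The intermediate filament Des rose 1.29-fold (log2 fold change 0.36 ± 0.07, adjusted p = 0.000466) and the calponin Cnn1 1.48-fold (log2 fold change 0.57 ± 0.12, adjusted p = 0.00152). The marker that fell was Hhip, an inhibitor of hedgehog signalling (log2 fold change −0.39 ± 0.09, adjusted p = 0.00351). Of 12 cardiac muscle markers 0 were called, with a summed level of 1316 to 2071 CPM after ozone and 1368 to 2214 CPM in air, and of 7 skeletal muscle markers 0 were called.

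Both genes of apelin signalling in capillaries fell. The peptide gene Apln had 15.7 to 28.2 CPM after ozone (median 25) and 34.9 to 45.4 CPM in air (median 38.7) (log2 fold change −0.74 ± 0.11, adjusted p = 3.75e-05), and its receptor Aplnr had 37.4 to 46.1 CPM after ozone (median 41.9) and 47.2 to 65.1 CPM in air (median 54.6) (log2 fold change −0.41 ± 0.08, adjusted p = 0.000727), both without overlap. Of 13 capillary endothelial markers 4 fell and 0 rose. The count of lower markers was 2 without air library 1 or 5, and 1 marker was higher without ozone library 2.

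Of 19 genes of matricellular repair 8 rose and 2 fell (median log2 fold change 0.12); 4 rose without ozone libraries 1 and 2, and 5 without air library 1 or 3. Of 18 metalloproteinases and their inhibitors 7 rose and 1 fell (median 0.04), and 2 fell without ozone library 1 or without libraries 1 and 2. Of 22 collagen chains 4 rose and 1 fell, with 2 higher and 2 lower without ozone library 1 or without both, 2 higher without air library 3, 0 lower without air library 2 or 3 and 2 lower without control-diet ozone library 1. All ozone libraries stood above all air libraries in 3 matricellular genes, 4 genes of the metalloproteinase list and 0 collagens. The glycoprotein tenascin C, Tnc, had 12.3 to 57.7 CPM after ozone (median 26.4) and 6.42 to 9.33 CPM in air (median 7.93) (log2 fold change 1.87 ± 0.23, adjusted p = 6.36e-06). The matricellular protein Thbs1 rose 1.9-fold (log2 fold change 0.93 ± 0.16, adjusted p = 0.000172). Osteopontin, Spp1, had 69.95 to 217 CPM after ozone (median 74.6) and 42.8 to 69.2 CPM in air (median 51.7) (log2 fold change 0.90 ± 0.21, adjusted p = 0.00268), and 0.49 without ozone library 1. The protease inhibitor Timp1 had 13.4 to 62 CPM after ozone (median 29.9) and 6.32 to 9.96 CPM in air (median 7.36) (log2 fold change 2.14 ± 0.26, adjusted p = 5.49e-06), the macrophage elastase Mmp12 rose 1.8-fold (log2 fold change 0.85 ± 0.17, adjusted p = 0.0007) and the membrane protease Mmp14 1.27-fold (log2 fold change 0.35 ± 0.06, adjusted p = 8.37e-05). The groups did not overlap in any of the 6 genes named.

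The same contrast on the control diet gave 1442 genes higher (8.93%) and 1271 lower (7.87%), from other libraries. Of the 2055 genes higher on the DHA diet 1074 were also called higher on the control diet, 1 was called lower, and 1997 had the same sign. Of the 1769 lower 792 were also called lower, 0 higher, and 1669 had the same sign. Genes called on the DHA diet had a median log2 fold change of 0.26 on it and 0.19 on the control diet among the higher, and of −0.32 and −0.21 among the lower; since they were called on the DHA diet, the choice of genes favours the larger size there. The difference between the diets was tested for each gene as an interaction, and 0 genes (0%) were called by edgeR, with 988 at an unadjusted p under 0.05 (6.12% of genes) and a smallest adjusted p of 0.166. DESeq2 called 5 and limma-voom 2.

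The values on both diets are given side by side for some of the groups described above. Retnla had log2 fold changes of 3.12 ± 0.29 on the DHA diet and 3.64 ± 0.30 on the control diet (interaction adjusted p = 0.911). The mitosis list had medians of 1.15 and 1.07, the proteasome list 0.22 and 0.17, and the cholesterol list 0.43 and 0.33. Medians were larger in size on the control diet in other lists, among them alternative activation (0.29 and 0.52) and alveolar type 2 (0.13 and 0.30). The NRF2 and antioxidant list had 0.24 and 0.30. The interferon-gamma list had −0.43 and −0.50, with 9 and 13 genes lower. The smallest unadjusted interaction p was that of Scn3b, with −0.93 ± 0.08 on the DHA diet and −0.34 ± 0.08 on the control diet (adjusted p = 0.166). Acta2 had 0.65 ± 0.09 and 0.11 ± 0.09 (adjusted p = 0.378), and Des 0.36 ± 0.07 and −0.07 ± 0.07 (adjusted p = 0.378). In control-diet air libraries 1 to 6 the mean log2 CPM of the smooth muscle list was 5.95, 6.09, 5.87, 5.82, 5.71 and 5.46. It was 5.69 to 5.86 in control-diet ozone libraries, so the control-diet change of these genes rests on an uneven air group. Of the neutrophil markers 9 rose on the DHA diet and 1 on the control diet, where Ltf had 0.06 ± 0.40 and S100a8 0.13 ± 0.44. The interaction of these 2 genes had adjusted p of 0.756 and 0.771. The mean log2 CPM of the neutrophil list was 2.01 to 3.29 in control-diet air libraries and 2.25 to 3.33 in control-diet ozone libraries. Of the clock genes 8 fell on the DHA diet and 0 on the control diet, where Per2 had −0.09 ± 0.12 (interaction adjusted p = 0.658). The respiratory chain had 20 and 7 genes higher, with medians of 0.15 and 0.11. For none of the genes given here did the difference between the diets pass the adjusted threshold, which does not show that the diets gave the same response. The counts and medians of the lists were not tested between the diets.

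**Figure D5:**
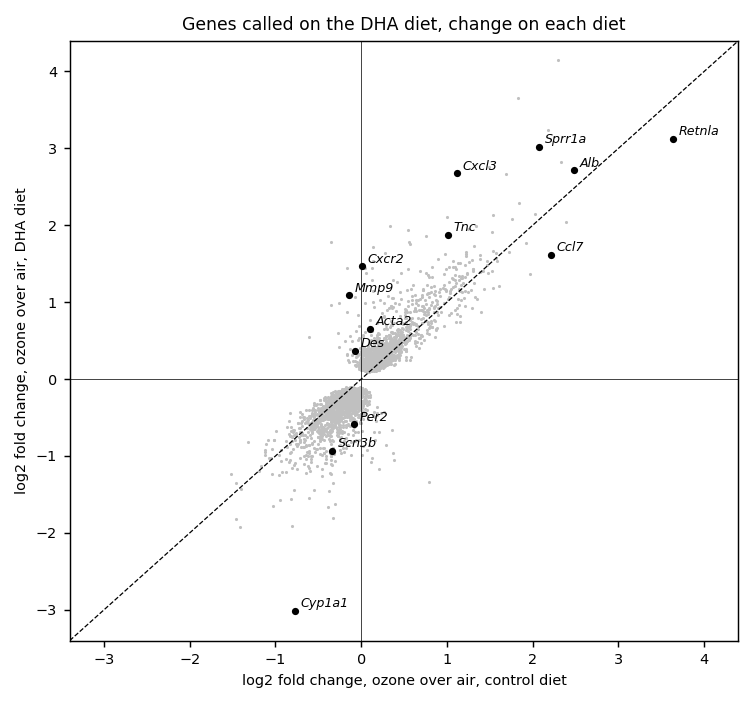
Log2 fold change of ozone over air on the control diet (x) against that on the DHA diet (y) for the 3824 genes called on the DHA diet, with the dashed line where both are equal. Points follow the line; Mmp9, Acta2 and Cxcr2 lie above it near 0 on the control diet and Scn3b and Per2 below it.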

How the data were processed

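The authors deposited whole-number read counts per gene for 24 lung libraries; per the submitters' processing notes, Partek, STAR and HTSeq were used with the mouse build mm39. The sources used here give no versions, annotation or strand setting, so reads of overlapping genes could not be told apart by strand; 9 of the genes named overlap another tested gene. The Scgb1a1 counts are deposited in rounded form. Total counts per library (18053493 to 26225630) set the precision.

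Library names in the table header were matched to the sample descriptions, which gives 4 groups of 6 libraries. Counts were fitted in edgeR 4.0.16 (R 4.3.3) with filterByExpr (minimum count 10, minimum total 15), TMM scaling, 1 mean per group and 20 residual degrees of freedom. Quasi-likelihood tests were adjusted by Benjamini-Hochberg over all 16153 genes and called at an adjusted p under 0.05. Values after ± in fold changes are standard errors, the log2 fold change over the square root of F. CPM use TMM-scaled library sizes; list levels are means of log2 CPM with a prior count of 2. In simulated counts for this contrast, over the 16153 genes with 200 changed, the test recovered 60% at 1.25-fold, 80% at 1.5-fold, 82% at 2-fold and 100% at 4-fold, and called 4 unchanged genes.

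The 69 gene lists, and the comparison itself, were chosen with earlier results of these data known. Genes were named by rule. The 10 largest changes and the 10 smallest p each way were taken among called genes averaging 5 CPM or more in the higher group. Predicted gene models were left out of both rankings. Up to 5 called and 3 abundant members of a list and the 6 smallest interaction p were added, and not all are printed. Fgg, S100a8, S100a9, Pfkfb3, Ptgs2, Alox15 and Hhip fall outside the rule and were chosen after their values were seen. Alternatives were DESeq2 1.42.0, limma-voom (limma 3.58.1), other scalings and filters, a replicate block, the 12 DHA-diet libraries alone, and leaving out libraries. Limma-voom was run with quality weights, so libraries that stand apart count for less. Promoters and motifs come from RefSeq windows on GRCm38.p6, a build other than that of the counts, matched by gene symbol. Of motifs counted for other lists, the sterol regulatory element TCACNCCAC lay in 1 of 13 called cholesterol genes (7.69%, against 1.44% of all). The antioxidant response element TGACNNNGC lay in 4 of 11 called genes of the NRF2 and antioxidant list (36.4%, against 16.7%). The E-box CACGTG lay in 2 of 8 called clock genes (25%, against 10.9%).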

Additional observations from a re-analysis of the deposited data

Results flagged for a closer look

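Of 242 sets of values (the 6 libraries of each group for 121 genes), 31 held a library that stood apart from the other 5 of its group by more than 0.625 of the group's whole range, in 29 genes. For independent, normally distributed values this cutoff is passed in about 1 in 20 sets. The CPM were not tested for that, and the genes were named partly for large changes, so that share is no measure of chance here. DHA-diet ozone library 1 made 19 of them. It stood highest of the 6 for Sprr1a at 26.7 CPM, Saa3 at 64.1 CPM, Krt19 at 495 CPM, Lgals3 at 249 CPM, Ereg at 5.28 CPM, Hbegf at 99.9 CPM, Serpina3n at 284 CPM, Il1b at 18.5 CPM, Cdkn1a at 108 CPM, Pkm at 611 CPM, Psat1 at 49.5 CPM, Mfsd2a at 14.8 CPM, Mboat1 at 30.7 CPM, Ptges at 53.4 CPM, Nfil3 at 13.6 CPM, Spp1 at 217 CPM and Sftpd at 1603 CPM. It stood lowest for Hp at 2131 CPM and Nr1d2 at 107 CPM. DHA-diet ozone library 2 stood highest for Taldo1 at 319 CPM and Gsr at 169 CPM, both antioxidant genes, and library 5 for Fads2 at 81.9 CPM.

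Among the air libraries, library 1 stood highest for Cyp1a1 at 18.3 CPM and lowest for Hsd17b12 at 53.7 CPM. Library 2 stood highest for Cxcl3 at 0.456 CPM and lowest for Top2a at 9.49 CPM. Library 5 stood highest for Saa3 at 5.23 CPM and Alox15 at 22.3 CPM and lowest for Phgdh at 7.03 CPM. Library 4 stood highest for Slc26a4 at 10.9 CPM and lowest for Nr1d2 at 179 CPM.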

How the results depend on the processing

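On the DHA diet, genes higher and lower numbered 2065 and 1762 with RLE scaling, 1836 and 1832 with library totals alone, 1962 and 1548 with no filter, 2136 and 1678 with at least 1 CPM in 6 libraries, 2243 and 1918 by DESeq2, 2306 and 2204 by limma-voom, 1826 and 1515 in the 12 DHA-diet libraries alone, and 1937 and 1664 without ozone libraries 1 and 2. Leaving out each of the 24 libraries gave 1687 to 2241 genes higher and 1388 to 1827 lower. The median log2 fold change of all genes was −0.01 with TMM or RLE scaling and −0.02 with library totals. The interaction called 0 genes in edgeR, 5 by DESeq2 and 2 by limma-voom, and 0 to 3 when single libraries were left out, with 3 without control-diet air library 6. Of 118 called genes named in the text, 111 kept the call in every fit; Cxcr2, S100a8, S100a9, Ltf, Mmp9, Il1b and Cyp1a1 did not, and Cyp1a1 ran between −3.28 and 0.37 over these fits, turning to 0.37 without DHA-diet air library 1.

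Replicate numbers are shared across groups by label, but same-numbered libraries did not deviate together (mean correlation −0.0169 over all 24, and −0.138 to 0.029 between DHA-diet ozone and air; 0 of 24 closest to one of their own number). With the replicate number as a block, 1843 genes were higher, 1590 lower and 0 called for the interaction. Libraries of 18053493 to 26225630 counts leave genes of about 1 CPM or less, such as Cxcl3, Fgg and Has2, resting on few counts.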

Other observations

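Genes of the hyaluronan matrix moved in both directions after ozone on the DHA diet. Hyaluronan is the long sugar polymer of the lung matrix, and its fragments act on innate receptors. The synthase gene Has2 had 0.569 to 1.12 CPM after ozone (median 0.739) and 0.0382 to 0.607 CPM in air (median 0.200), with ranges that just overlapped (log2 fold change 1.63 ± 0.35, edgeR adjusted p = 0.00143). Has3, another synthase, had 2.30 to 3.08 CPM after ozone (median 2.65) and 3.69 to 5.41 CPM in air (median 4.38), without overlap (−0.73 ± 0.14, adjusted p = 0.000591). The co-receptor Cd14, through which toll-like receptor 4 senses its ligands, had 57.0 to 99.3 CPM after ozone and 56.7 to 61.7 CPM in air, and rose (0.43 ± 0.09, adjusted p = 0.00071). Of 16 genes of this list 5 rose and 1 fell.

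Iron handling genes were among 4 of 14 genes of metal handling that rose, with 1 that fell. The transferrin receptor Tfrc had 94.3 to 144 CPM after ozone and 81.3 to 88.6 CPM in air, without overlap (log2 fold change 0.41 ± 0.08, edgeR adjusted p = 0.000735). Ceruloplasmin, the ferroxidase coded by Cp, had 296 to 467 CPM after ozone and 268 to 307 CPM in air (0.48 ± 0.10, adjusted p = 0.00106). The anion exchanger Slc26a4 had 7.54 to 19.2 CPM after ozone and 5.51 to 10.9 CPM in air, with overlap (0.94 ± 0.23, adjusted p = 0.00347). Trp53inp1, a target of p53, had 53.4 to 71.8 CPM after ozone and 77.1 to 97.7 CPM in air and fell without overlap (−0.50 ± 0.08, adjusted p = 0.000149), while the p53 target Cdkn1a rose.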
